A study of Saccharomyces cerevisiae with 20 samples.

Results

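The aerobic post-diauxic phase was compared with the diauxic shift that precedes it, on 4 of the 20 arrays of the series. The labels chose the arrays: 2 were hybridised with RNA sampled during the diauxic shift, and 2 with RNA sampled in the post-diauxic phase, from 2 aerobic batch cultures. The yeast was the haploid *Saccharomyces cerevisiae* strain CEN.PK113-7D (MATa MAL2-8C SUC2), grown in bioreactors on synthetic medium with 20 g/L glucose at 30 °C and pH 5.0 under a flow of air. Both groups carried this genotype and received no other treatment, so they differed in the time of sampling alone. The remaining 16 arrays cover 4 other aerobic and 4 anaerobic time points, each with 2 cultures, and served here to estimate the spread and to give the levels before and after. A single strain and 2 cultures stand behind every value, and each RNA sample came from a whole culture.

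In an aerated glucose batch, *S. cerevisiae* first ferments most of the sugar to ethanol even though oxygen is present. When glucose runs out, growth pauses at the diauxic shift, genes under glucose repression are switched on and the costly synthesis of ribosomes is shut down. Growth then resumes at a slower pace, with ethanol and acetate as respired carbon sources, until these run out as well and the culture enters the stationary phase (SP). Ribosomal protein genes and ribosome assembly genes are known to follow growth through the TORC1 and protein kinase A pathways, while the transcription factors Msn2 and Msn4 drive stress genes when those pathways are quiet. The comparison asks which transcripts changed between the pause and the respiratory growth that follows it.

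Each value is an Affymetrix signal on a linear scale, with all arrays scaled to the same average, so a change is relative to the rest of the transcriptome and not per cell. In whole-culture RNA, fewer cells that carry a transcript and less transcript per cell cannot be told apart. Signals below 12 were set to 12. A probe set was called changed at an adjusted p below 0.05 and a change of at least 2-fold, and is said to have passed the test where it met both. Log2 changes are positive where the post-diauxic signal was higher. The 2 cultures were independent duplicates.

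The 2 diauxic shift arrays correlated at 0.9927 and the 2 post-diauxic arrays at 0.9908 over log2 signals, above the 0.9618 to 0.9744 between the 2 groups. The diauxic shift array of culture 2 lay closer to both post-diauxic arrays (0.9719 and 0.9744) than that of culture 1 did (0.9618 and 0.9629). Ratios of 3′ to 5′ signal, a measure of RNA integrity, differed between the groups. For ACT1 they were 2.03 and 1.94 at the diauxic shift and 1.604 and 1.79 in the post-diauxic phase, and for SPT15 4.58 and 4.28 against 2.36 and 3.298, but for SRB4 they ran the other way, from 4.68 and 4.42 to 8.16 and 11.2. Their part in the results was not tested. None of the 6 housekeeping genes named in the methods passed the test, and their median log2 change was -0.05. Of 12 genes known from oxygen-free growth none passed the test, but the array of culture 2 was higher for several of them at both time points, with summed signals of 2602 and 3682 at the diauxic shift and 1356 and 3484 in the post-diauxic phase for cultures 1 and 2. For the labelled mating type, the summed signals of 6 MATa-specific genes were 3973 to 4796 on the 4 arrays and those of 3 MATalpha-specific genes 86.5 to 199.8. Of the former 1 rose, STE2, the receptor for alpha pheromone, from 137 and 147 to 289 and 283.

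Between the diauxic shift and the post-diauxic phase, 450 of 6067 probe sets were called higher and 215 lower. Counted with 1 probe set a gene, 372 of 5360 genes rose and 196 fell, which is a background of 6.94% higher and 3.66% lower. Changes of over 4-fold were seen for 35 genes that rose and 15 that fell. Among the 665 called probe sets the changes of the 2 cultures differed by a median of 0.41 on the log2 scale. Without the diauxic shift array of culture 1, 231 probe sets were called higher and 120 lower. With the spread estimated from the 4 arrays alone, 284 were called higher and 177 lower.

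**Figure D1:**
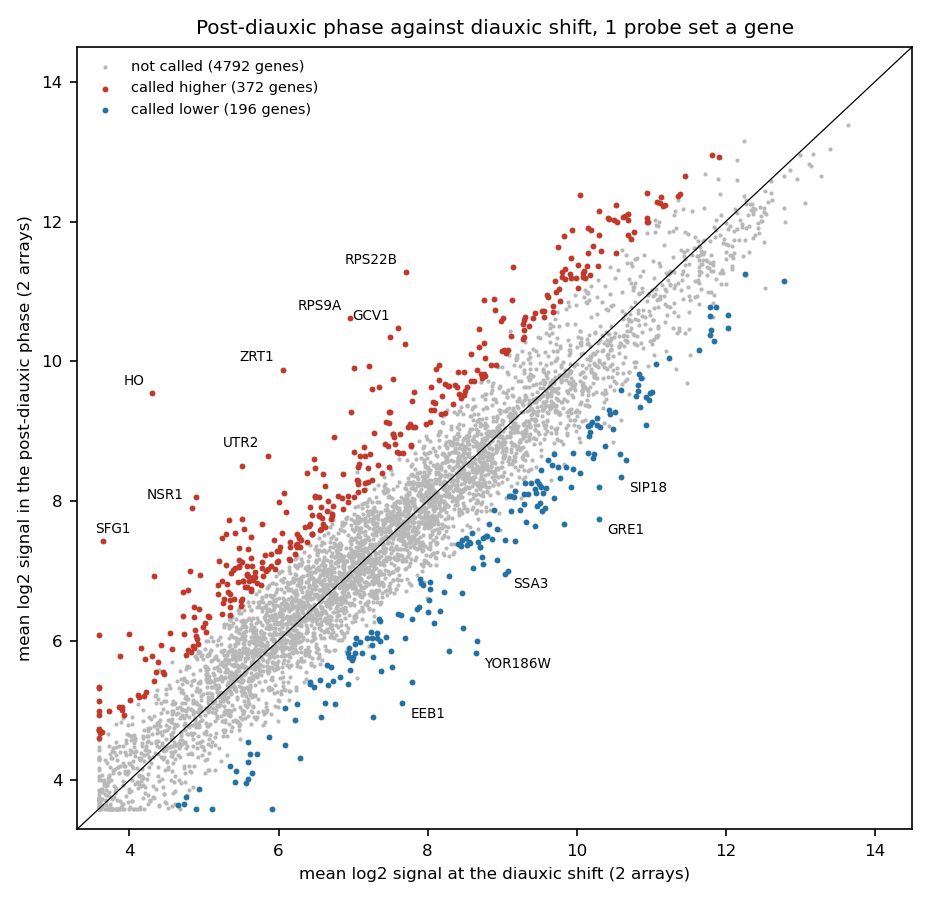
Mean log2 signal of each of 5360 genes (1 probe set a gene, signals below 12 set to 12) at the diauxic shift (horizontal axis) and in the post-diauxic phase (vertical axis), each the mean of 2 arrays. The 372 genes called higher lie above the line of equality and the 196 called lower below it, with HO farthest from the line.

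The largest increase belonged to HO, which encodes the endonuclease that starts mating-type switching and is normally transcribed late in G1 of mother cells. Its signals were 19.4 and 20.2 at the diauxic shift and 982 and 568 in the post-diauxic phase, a 37.7-fold difference (log2 5.24, SE 0.22, adjusted p = 1.88e-09). Both post-diauxic arrays stood far above both earlier ones, and at a level close to that of the late exponential phase, where HO gave 625 and 614. By early SP its signal had returned to 36.9 and 39.4. SFG1, which encodes a transcription factor of pseudohyphal growth, had the same course, with 12 and 13.1 at the shift, 198 and 149 in the post-diauxic phase (13.7-fold, log2 3.78, SE 0.36, adjusted p = 8.1e-06) and no signal above 12 in SP. UTR2, a cell wall enzyme that links chitin to glucan, rose 6.92-fold from 51.3 and 65.7 to 395 and 409.

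ZRT1 encodes the high-affinity zinc transporter, and its signals of 61.3 and 72.1 at the diauxic shift became 952 and 934 in the post-diauxic phase, a 14.2-fold rise (log2 3.83, SE 0.24, adjusted p = 1.48e-07). Its late exponential signals, 105 and 125, lay above those of the shift and far below the post-diauxic ones, and it stayed at 564 and 543 in early SP and 677 and 670 in late SP.

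The cytosolic ribosome gave the largest group of changes. Of 137 genes for its proteins, 134 were measured through 107 probe sets, 27 of which match a pair of near-identical copies, and 71 of the 107 rose while none fell. Their median log2 change was 1.13, against 0 over all probe sets tested, and 106 of the 107 had a positive change. The sum of their signals was 132612 and 182954 at the diauxic shift and 336084 and 331382 in the post-diauxic phase, so the groups did not overlap, although the 2 diauxic shift arrays differed more from each other than the later ones did. Without the diauxic shift array of culture 1, 25 of the 107 were called higher and the median was 0.91, and with the 4 arrays fitted alone 28 were called.

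The 4 ribosomal protein genes with the largest changes are given here beside the other member of their duplicated pair. RPS9A rose from 93.1 and 166 to 1658 and 1492, a 12.6-fold change (log2 3.66, SE 0.29, adjusted p = 1.35e-06), while its partner RPS9B rose 3.35-fold, from 441 and 717 to 1971 and 1798. RPS22B rose 11.9-fold from 194 and 225 to 2419 and 2542, and RPS22A 5.03-fold from 675 and 1662 to 5238 and 5421. The pair RPL22B and RPL22A rose 7.95-fold and 3.84-fold, and RPL7B and RPL7A 6.57-fold and 3.24-fold, though RPL7B was not called with the 4 arrays fitted alone. The first member of each pair was picked as 1 of the 4 largest changes in the list, so the smaller change of its partner follows from that choice. The difference between the members was not tested. A further probe set that matches both RPS9A and RPS9B rose 15.2-fold, and 1 that matches both RPL7B and RPL7A 2.68-fold, so signals of such copies are uncertain. At the other end of the list, RPL15B was the single member with a negative change, at 792 and 650 against 614 and 641 (log2 -0.19, adjusted p = 0.559), while a probe set that matches both RPL15B and RPL15A was called higher (log2 1.00).

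Genes that build the ribosome moved with its proteins. Of 78 measured genes of ribosome biogenesis 48 rose and none fell, with a median log2 change of 1.18. NSR1, the yeast nucleolin, went from 18.7 and 44.0 to 201 and 285, an 8.35-fold rise (log2 3.06, SE 0.58, adjusted p = 0.00202). DBP2, an RNA helicase of the DEAD-box family, went from 20.2 and 43.9 to 243 and 288, an 8.89-fold rise. For both, culture 1 was lower than culture 2 at the shift, yet each post-diauxic array lay above each diauxic shift array. NSR1 was not called with the 4 arrays fitted alone or at a floor of 1. CBF5, the pseudouridine synthase of ribosomal RNA, rose 5.09-fold, and NOP58, a core protein of the box C/D particles that methylate it, rose 4.61-fold. Among the subunits of RNA polymerases I and III, which transcribe ribosomal and transfer RNA, 10 of 18 rose and none fell (median 1.19). RPA12 had signals of 37.5 and 41.4 at the shift and 174 and 195 afterwards (4.67-fold), RPA43 rose 4.53-fold and RPA49 4.14-fold, and RPC31, at or below 12 on both diauxic shift arrays, reached 42.0 and 38.0, at least 3.33-fold higher. Without the diauxic shift array of culture 1 the calls were 24 of 78 and 8 of 18. RPA43 was not called with the 4 arrays fitted alone, and at a floor of 1 neither RPA43 nor RPA12 was.

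Of 28 probe sets of translation factors 9 rose and 1 fell, with a median of 0.70. TEF4, a subunit of elongation factor eEF1B, rose 3.47-fold from 251 and 321 to 993 and 978, and its companion subunit EFB1 rose 2.71-fold. RPG1, a subunit of initiation factor eIF3, rose 2.55-fold. The member that fell was HEF3, a close relative of elongation factor eEF3, which had 647 and 605 at the shift and 338 and 222 afterwards (log2 -1.19, adjusted p = 0.00252) and was near 12 during growth on glucose. Without the diauxic shift array of culture 1, 5 of the 28 were called higher. Proteins of the mitochondrial ribosome, which translates a few respiratory subunits, did not move with the cytosolic ones. None of the 66 measured passed the test in either direction, with a median of 0.00 and 33 members on each side of 0, and none of 22 genes of mitochondrial protein import passed it.

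**Figure D2:**
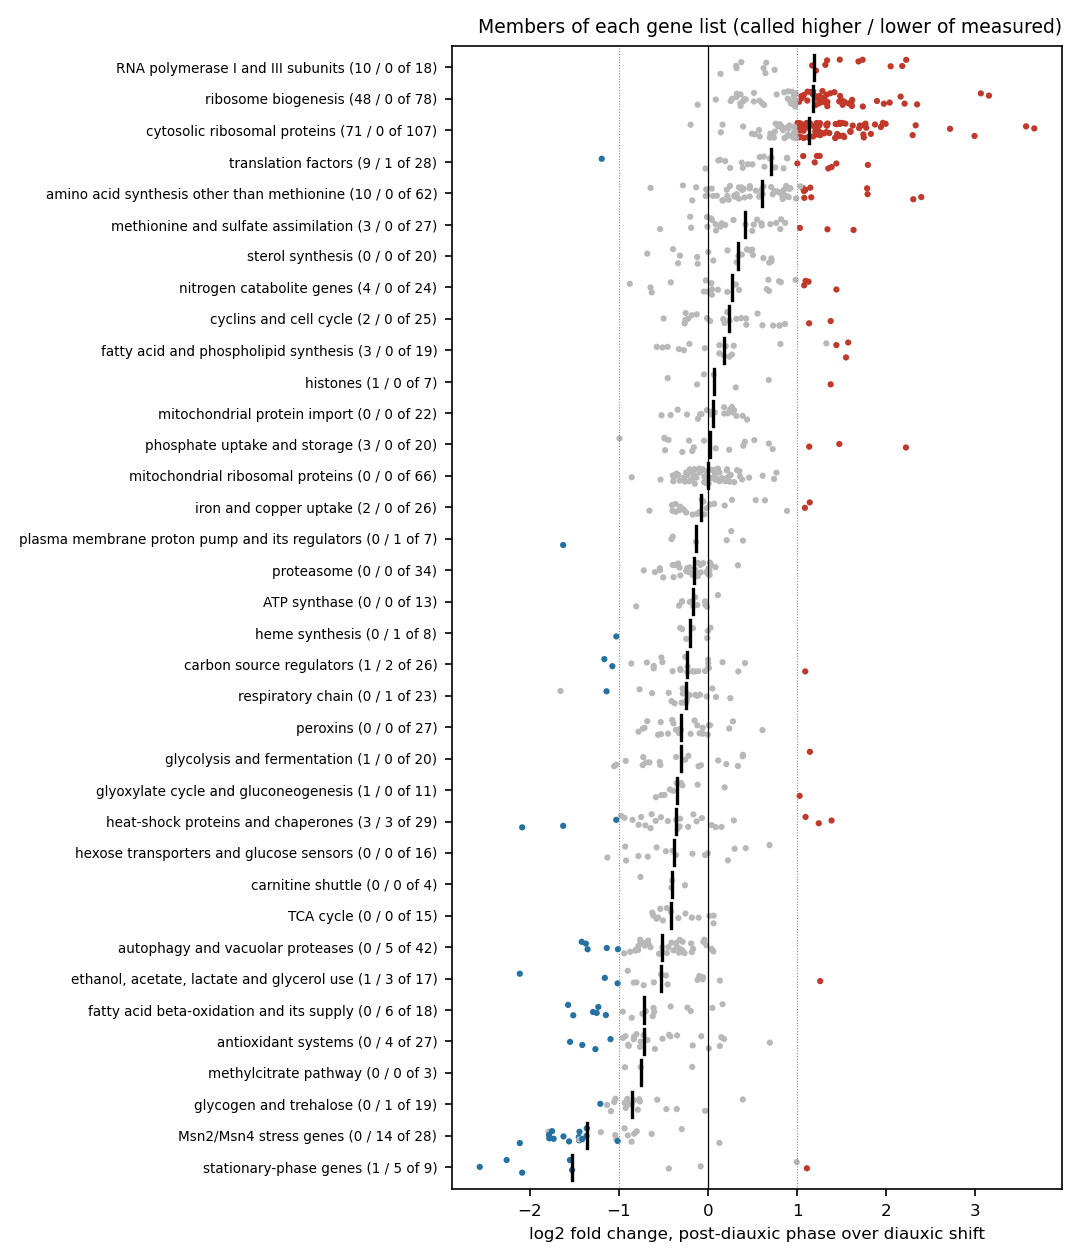
Log2 change of every measured member (points) of 36 gene lists between the diauxic shift and the post-diauxic phase, red where called higher, blue where called lower and grey where not called, with the median of each list as a black bar. The numbers behind each name give the members called higher and lower, and dotted lines mark 2-fold. The 3 lists of ribosome production lie at the top with medians of 1.13 to 1.19, and the stress and stationary-phase lists at the bottom with medians of -1.36 and -1.52.

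Of 62 measured genes of amino acid synthesis outside the methionine pathway 10 rose, none fell and 52 were not called, with a median of 0.60. The share that rose was 16.1%, beside 6.94% of all genes. LEU9, an isopropylmalate synthase of leucine synthesis, rose 5.25-fold from 32.0 and 50.6 to 242 and 185 (log2 2.39, SE 0.21, adjusted p = 2.99e-06). The lysine pathway gave LYS9 (4.94-fold, not called with the 4 arrays fitted alone) and LYS4 (3.46-fold), and SER2, the last enzyme of serine synthesis, rose 3.45-fold. In sulfate assimilation and methionine synthesis 3 of 27 rose: SAM1, which makes S-adenosylmethionine (3.10-fold), MET6, the methionine synthase (2.53-fold), and CYS3, which makes cysteine (2.04-fold). They were 11.1% of the list, beside 6.94% of all genes. A second probe set, which matches both SAM2 and SAM1, stayed under the fold limit (log2 0.76). Without the diauxic shift array of culture 1 the counts were 5 of 62 and 1 of 27, and without the post-diauxic array of culture 1 that of amino acid synthesis was also 5.

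Other biosynthetic lists held 3 calls or fewer each. Of 19 genes of fatty acid and phospholipid synthesis 3 rose, a share of 15.8% beside 6.94% of all genes. These were the elongases ELO2 (from 120 and 155 to 391 and 407, 2.93-fold) and ELO3 (2.71-fold), which make very long chain fatty acids, and INO2 (2.98-fold), an activator of phospholipid genes that lost its call without either array of culture 1. INO2 was also not called with the 4 arrays fitted alone. None of 20 sterol genes passed the test, and their median was 0.33. Of 25 genes of the cell cycle 2 rose, a share of 8% beside 6.94% of all genes. They were the B-type cyclin CLB1 and RNR1, the large subunit of ribonucleotide reductase that makes DNA precursors. RNR1 had 169 and 177 at the shift and 518 and 390 afterwards (2.60-fold, adjusted p = 0.0143). The call of CLB1 was lost without any 1 of the 4 arrays, and that of RNR1 without either diauxic shift array or the post-diauxic array of culture 1. Among the histones 1 of 7 probe sets rose, a share of 14.3%. It was HTB2 for histone H2B, from 279 and 341 to 743 and 863 (2.60-fold).

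In the lists of nutrient uptake all calls were higher. Of 20 phosphate genes 3 rose (median 0.02), a share of 15% beside 6.94% of all genes. The sodium-phosphate symporter PHO89 went from 162 and 211 to 963 and 771, a 4.66-fold change (log2 2.22, SE 0.20, adjusted p = 4.62e-06). PHO84, the high-affinity phosphate transporter, rose 2.78-fold from 32.2 and 26.5 to 87.6 and 75.2. Of 24 nitrogen genes 4 rose (median 0.27), a share of 16.7%. They encode DUR3, the urea transporter (2.72-fold), DAL5, a permease for allantoate (2.14-fold), MEP2, the high-affinity ammonium permease (2.11-fold), and the allantoinase DAL1, which was at or below 12 on both diauxic shift arrays and had 24.0 and 28.7 afterwards. Of these, DUR3 had 112 and 164 at the shift and 394 and 345 afterwards. DAL5 and MEP2 were not called with the 4 arrays fitted alone. Without the diauxic shift array of culture 1, 1 nitrogen gene was called higher, without that of culture 2 7 were, and without either post-diauxic array 2 were. Of 26 iron and copper genes 2 rose, a share of 7.69% beside 6.94% of all genes, while 17 had negative changes and the median was -0.08. They were FET3, the multicopper oxidase of iron uptake (2.21-fold), and TIS11, an RNA-binding protein of iron shortage (2.13-fold), and the call of FET3 was lost without the diauxic shift array of culture 2 or the post-diauxic array of culture 1. TIS11 was not called at a floor of 1.

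Of 28 genes that Msn2 and Msn4 are known to drive, 14 fell and none rose, with a median of -1.36 (50% of the list, beside 3.66% of all genes). ALD3, a cytosolic aldehyde dehydrogenase, had 1598 and 1004 at the shift and 292 and 294 afterwards, 4.32-fold lower (log2 -2.11, SE 0.30, adjusted p = 0.000272). SDP1, a phosphatase of the cell wall stress kinase, was 3.43-fold lower and GAD1, the glutamate decarboxylase, 3.44-fold lower. Of the 28 genes, 27 had negative changes, and some stood clear of the overlap without passing the test, such as SOL4, a homolog of a pentose phosphate pathway enzyme, with 3166 and 2558 against 803 and 847 (log2 -1.79, SE 0.86, adjusted p = 0.153). In the glucose phase, which shares in the estimate of the error, SOL4 gave 357 and 26.8 (exponential) and 55.1 and 331 (late exponential) in the 2 cultures. Fitted without those 4 arrays, an alternative chosen after seeing the data, 20 of the 28 were called lower. The count was 7 without the diauxic shift array of culture 1, and 8 without either post-diauxic array.

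Of 9 genes known as markers of stationary phase 5 fell, 1 rose and the median was -1.52. The shares were 55.6% lower and 11.1% higher, beside 3.66% and 6.94% of all genes. GRE1 and SIP18, which encode small hydrophilic proteins of the desiccation response, had 1432 and 1100, and 1863 and 1283, at the diauxic shift, and 215 and 211, and 333 and 314, in the post-diauxic phase. The changes were 5.89-fold (log2 -2.56, SE 0.19, adjusted p = 6.22e-07) and 4.78-fold (log2 -2.26, SE 0.20, adjusted p = 2.99e-06). SSA3, a cytosolic Hsp70, fell 4.24-fold from 540 and 513 to 164 and 94.0, SPG4 2.92-fold from 3860 and 3467 to 1460 and 1072, and SPG1 2.87-fold from 2135 and 1883 to 777 and 626. SPG3 (661 and 659 against 472 and 503) and SPG5 (569 and 587 against 511 and 584) did not pass the test. The gene that rose was SNZ1, of vitamin B6 synthesis, with 426 and 274 against 934 and 582, and its call was lost without the diauxic shift array of culture 2 or the post-diauxic array of culture 1. The 5 genes that fell had risen to the diauxic shift, and 4 of them rose from the post-diauxic phase to early SP, with log2 changes of 1.27 (GRE1) to 2.26 (SPG1), while SIP18 changed by 0.19 (adjusted p = 0.511). SSA3 then reached 6253 and 6640 in late SP.

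Of 29 heat-shock and chaperone genes 3 rose, 3 fell and 23 were not called (median -0.36). The share was 10.3% in each direction, beside 6.94% higher and 3.66% lower of all genes. The ones that fell were SSA3, HSP30, a plasma membrane protein that went from 7730 and 6372 to 2615 and 1984 (3.08-fold), and SSA4, another Hsp70 (2.04-fold), whose call was lost without any 1 of the 4 arrays. The ones that rose were the ribosome-bound Hsp70 pair SSB1 and SSB2 (2.61-fold, 1 shared probe set, call lost without the diauxic shift array of culture 1 and with the 4 arrays fitted alone), the Hsp40 YDJ1 (from 699 and 691 to 1561 and 1734, 2.37-fold) and SSA2 (2.14-fold). Further probe sets, which match both SSA1 and SSA2, had negative changes and did not pass the test (log2 -0.26, adjusted p = 0.423, and log2 -0.38, adjusted p = 0.201). HSP104, HSP26 and HSP12 did not pass the test, at log2 changes of -0.75, -0.78 and -0.63, and none of 34 proteasome genes did.

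Lists for protection against oxidants, storage carbohydrates and autophagy held 4, 1 and 5 calls, all lower, and all had negative medians (-0.72, -0.86 and -0.51). Of 27 antioxidant genes 4 fell, a share of 14.8% beside 3.66% of all genes. They were the peroxiredoxin TSA2 (2.92-fold), the cytosolic catalase CTT1 (from 296 and 189 to 93.9 and 84.4, 2.66-fold), the glutathione peroxidase GPX1 (2.40-fold) and the glutaredoxin GRX1 (2.13-fold). GPX1 lost its call without the diauxic shift array of culture 1 or either post-diauxic array, and with the 4 arrays fitted alone GPX1 and CTT1 did. Of 19 glycogen and trehalose genes 1 fell, PIG2, a regulatory subunit for glycogen synthase (from 159 and 160 to 69.6 and 68.6), although 18 had negative changes. That is 5.26% of the list, beside 3.66% of all genes. For TSL1, a subunit of trehalose synthase, the signals were 2248 and 1608 against 963 and 783 (adjusted p = 0.371), again with a wide spread between the glucose-phase arrays. Without the 4 arrays of the glucose phase, 5 of the 19 were called lower. Of 42 genes of autophagy and vacuolar proteolysis 5 fell, a share of 11.9%. Among them was PRC1, the carboxypeptidase Y, from 3912 and 3186 to 1272 and 1376 (2.67-fold). The count was 3 without any 1 of the 4 arrays.

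**Figure D3:**
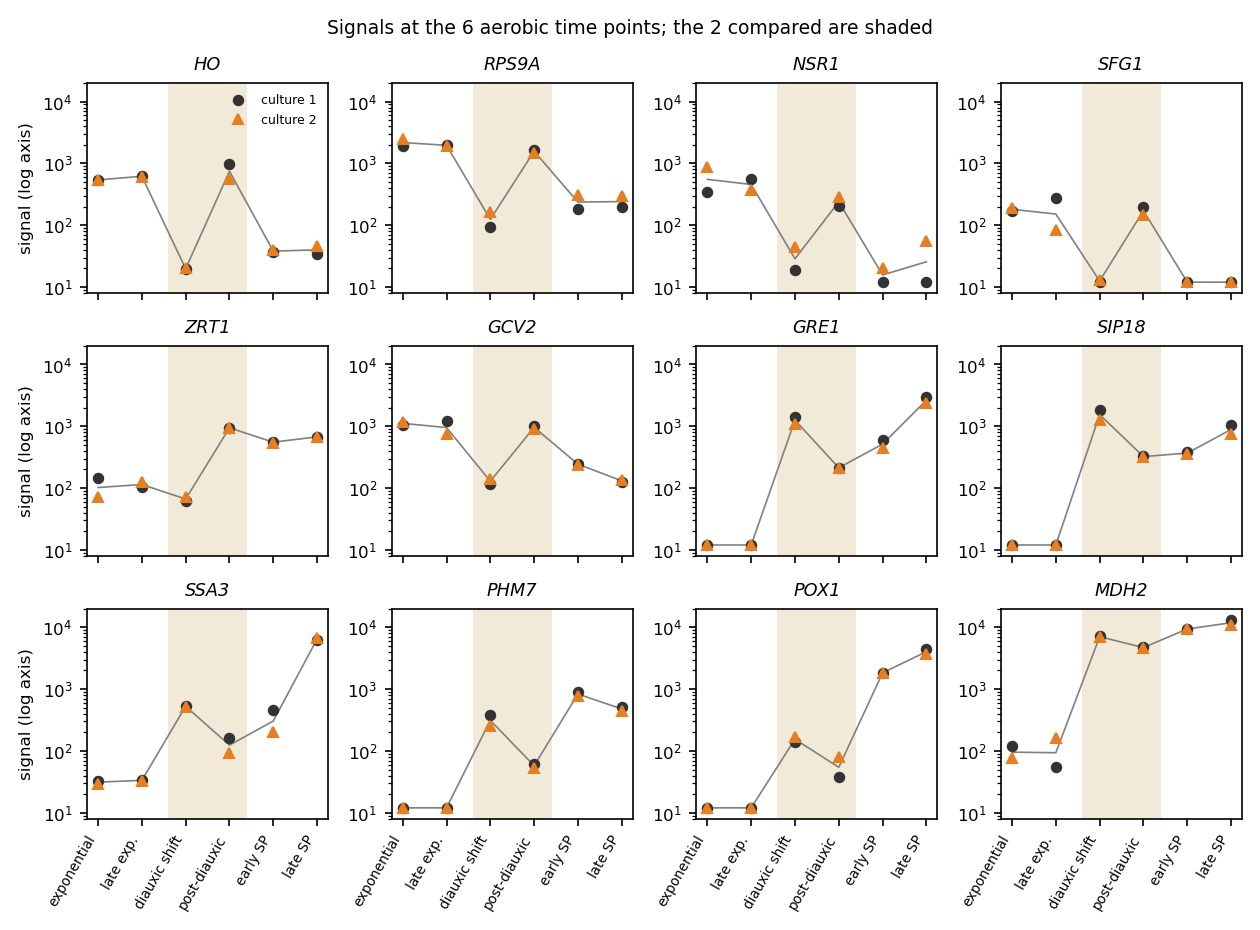
Signals of 12 genes on the 12 aerobic arrays, in order of sampling, on a logarithmic axis with signals below 12 set to 12. Circles are culture 1, triangles culture 2 and the line joins their geometric means, with the 2 time points compared shaded. HO, RPS9A, NSR1, SFG1 and GCV2 drop at the diauxic shift and return in the post-diauxic phase, ZRT1 rises and stays high, and the other 6 are higher at the shift than in the post-diauxic phase.

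Of 18 measured genes of peroxisomal β-oxidation and its supply 6 fell and none rose, with a median of -0.72. The share that fell was 33.3%, beside 3.66% of all genes. POT1, the thiolase that ends each round, had 1170 and 1242 at the shift and 390 and 424 afterwards (2.97-fold lower, log2 -1.57, SE 0.23, adjusted p = 0.000361). POX1, the oxidase that starts it, had 140 and 171 against 37.6 and 78.5 (2.85-fold lower) and then 1824 and 1843 in early SP. FAA1, an acyl-CoA synthetase, and SPS19, a dienoyl-CoA reductase, fell 2.44-fold and 2.37-fold. CTA1, the peroxisomal catalase, missed the fold limit, with 1269 and 1376 against 659 and 705 (1.94-fold lower, adjusted p = 0.000661). Without the post-diauxic array of culture 1, 3 of the 18 were called lower and POX1, FAA1 and SPS19 lost their calls, as they did with the 4 arrays fitted alone. FAA1 was not called without the diauxic shift array of culture 1 either. None of 27 peroxin genes, which build the peroxisome, passed the test (median -0.30).

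Few genes for the use of ethanol and acetate, which had been switched on at the diauxic shift, were called afterwards. In the glyoxylate cycle and gluconeogenesis, which turn acetate into sugar, the median log2 change was 6.23 from the late exponential phase to the diauxic shift, -0.35 from there to the post-diauxic phase and 0.49 to early SP. ICL1, the isocitrate lyase, had 7563 and 8388 at the shift and 7014 and 5555 afterwards, PCK1, the phosphoenolpyruvate carboxykinase, 5750 and 6177 against 4474 and 4389, and MDH2, the cytosolic malate dehydrogenase, 7247 and 6847 against 4723 and 4677. None of the 3 passed the test. Of the 11 genes of the list 1 rose, a share of 9.09% beside 6.94% of all genes. The 1 gene of the list that rose was MAE1, the malic enzyme, with 623 and 626 against 1220 and 1329 (2.04-fold), a call lost without any 1 of the 4 arrays. ADH2, the alcohol dehydrogenase that consumes ethanol, had 6669 and 7559 against 3780 and 4387 (1.74-fold lower, adjusted p = 0.0354), short of the fold limit.

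Among 17 genes that take up and oxidise ethanol, acetate, lactate or glycerol, 3 fell and 1 rose. These are shares of 17.6% and 5.88%, beside 3.66% and 6.94% of all genes. ADY2, an acetate transporter, fell 2.02-fold from 1587 and 2090 to 795 and 1025, a call lost without the diauxic shift array of culture 2 or the post-diauxic array of culture 1. ADY2 was also not called at a floor of 1, with housekeeping scaling or with the 4 arrays fitted alone. ALD3 (above) and ALD2 (2.23-fold) are paired cytosolic aldehyde dehydrogenases, the latter no longer called without the diauxic shift array of culture 1 or the post-diauxic array of culture 2. The rise was that of ALD5, a mitochondrial aldehyde dehydrogenase (from 143 and 152 to 380 and 329, 2.39-fold). Of the machinery of respiration, none of 15 genes of the TCA cycle and none of 13 of the ATP synthase passed the test, with medians of -0.42 and -0.17. In the respiratory chain 1 of 23 fell, a share of 4.35% beside 3.66% of all genes. It was NDE2, an external NADH dehydrogenase, which went from 3626 and 3440 to 1472 and 1752 (2.20-fold). CYC7 changed more, from 1614 and 1286 to 539 and 389, but did not pass the test (log2 -1.65, SE 0.60, adjusted p = 0.0631). Its glucose-phase signals were 86.5 and 15.8 (exponential) and 26.7 and 93.9 (late exponential).

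No gene was called in the lists of the carnitine shuttle (4 genes), the methylcitrate pathway (3) and the hexose transporters with their sensors (16 probe sets). In glycolysis and fermentation 1 of 20 rose, HXK2, the main hexokinase of growth on glucose, from 601 and 723 to 1336 and 1588 (2.21-fold), a call lost without the diauxic shift array of culture 1. Among 26 regulators of carbon source use, SIP4, an activator of gluconeogenic genes, and SIP2, a subunit of the Snf1 kinase, fell 2.24-fold and 2.10-fold, and the repressor NRG2 rose 2.13-fold. These shares were 7.69% lower and 3.85% higher, beside 3.66% and 6.94% of all genes. The share of glycolysis and fermentation genes called higher was 5%. HEM15, the ferrochelatase, was the 1 of 8 heme genes that fell (2.04-fold), and HSP30, which restrains the plasma membrane proton pump, the 1 of 7 genes of that pump and its regulators. These were 12.5% and 14.3% of their lists, beside 3.66% of all genes. Calls were lost without the diauxic shift array of culture 1 for SIP2, NRG2 and HEM15, without the post-diauxic array of culture 1 for SIP2, and without that of culture 2 for SIP4 and HEM15. SIP4 was also not called at a floor of 1, nor HEM15 with housekeeping scaling.

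Among the genes with the largest decreases, several belong to none of these lists. YOR186W, a gene of unknown function, had 505 and 322 at the shift and 56.0 and 56.9 afterwards, 7.15-fold lower (log2 -2.84, SE 0.21, adjusted p = 6.73e-07). PNS1, a relative of choline transporters, fell 6.36-fold from 511 and 319 to 59.9 and 67.3, and PHM7 fell 5.42-fold from 387 and 252 to 62.0 and 53.6. Both were higher again in early SP, at 406 and 411 for PNS1 and 889 and 779 for PHM7. EEB1, which makes ethyl esters of fatty acids, fell 5.89-fold from 180 and 229 to 24.4 and 48.5. IMA1, an isomaltase, fell 5.22-fold and SHH3, a homolog of a succinate dehydrogenase subunit, 4.90-fold. TKL2, the minor transketolase, had 1158 and 720 against 199.5 and 206.8 (log2 -2.17). YKL107W fell 5.14-fold, from 198 and 121 to 30.2 and 30.0. For 4 probe sets both post-diauxic arrays were at the floor of 12, the largest change being that of YMR085W, from 67.8 and 53.2, which is at least 5.00-fold.

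Set in the aerobic time course, the step from the late exponential phase to the diauxic shift gave more calls, with 1175 probe sets higher and 771 lower (19.9% and 12.6% of genes), and the step from the post-diauxic phase to early SP gave 413 higher and 698 lower (6.96% and 11.7% of genes). Quantile normalization turned the split of the earlier step, to 877 higher and 993 lower. These 3 comparisons share arrays, so their values are given side by side. For the cytosolic ribosomal proteins the median log2 changes over the 3 steps were -2.05, 1.13 and -1.09, for ribosome biogenesis -1.33, 1.18 and -2.09, and for amino acid synthesis -0.92, 0.60 and -1.07. For the Msn2 and Msn4 genes they were 4.37, -1.36 and 0.54, and for fatty acid oxidation 2.09, -0.72 and 2.87. Relative to the exponential phase, the median ribosomal protein signal stood at -2.39 and -1.90 at the diauxic shift, -0.92 and -0.95 in the post-diauxic phase and -2.17 and -1.87 in early SP on the log2 scale, for cultures 1 and 2. The post-diauxic level of the ribosomal proteins lay between the glucose phase and the shift in both cultures.

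**Figure D4:**
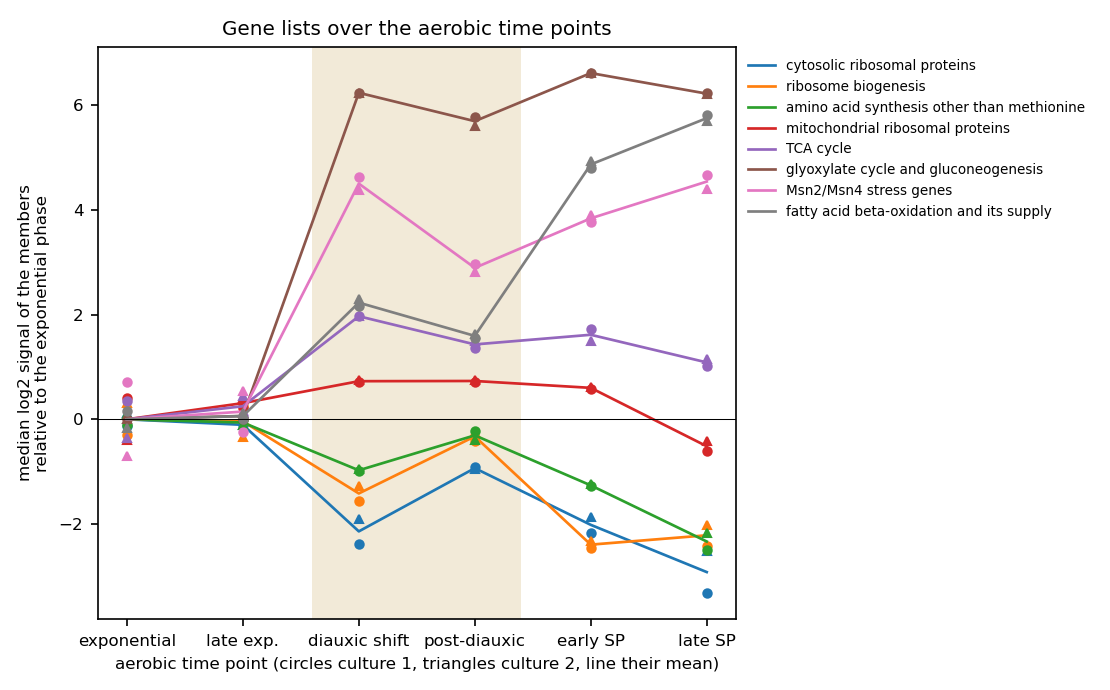
Median log2 signal of the members of 8 gene lists relative to their mean in the exponential phase, at the 6 aerobic time points, with circles for culture 1, triangles for culture 2 and a line through their mean. The 2 time points compared are shaded. Ribosomal proteins, ribosome biogenesis and amino acid synthesis rise within the shaded step and the stress genes and fatty acid oxidation drop, while mitochondrial ribosomal proteins stay level.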

How the data were processed

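Total RNA of the 20 culture samples had been hybridised to Affymetrix YG-S98 arrays. The authors deposited 1 table of intensity values, linear signals per probe set that the authors scaled to a target average of 240 per array, and it was used with no further scaling. The signal software is not given in the sources used here. Array precision is limited by the number of cultures and by background: 2459 to 2555 of the 9335 features lay below 12 on the 4 arrays compared, whose median signals were 63.8 to 69.4.

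Signals were floored at 12 and log2 transformed. Of 6647 features of protein-coding genes (platform annotation, symbols updated through RefSeq), 580 with no signal of 20 or more were left out. The 6067 others were fitted with limma 3.58.1 (R 4.3.3) as 10 group means over 20 arrays (10 residual and 4.732 prior degrees of freedom), with Benjamini-Hochberg adjustment over all 6067. For genes with several probe sets (261) 1 was counted, and 45 of them had calls that differed between probe sets. The 293 probe sets of several genes keep all names. Gene lists were described by counts and medians without a test. The labels number the aerobic batches 1 and 2 at every time point, which pairs the samples by culture, and these numbers were kept. The data do not bear the numbering out at every time point (correlation of deviations from the group means 0.121 for the 2 groups compared, -0.555 to 0.373 over the 15 pairs of aerobic time points, the lowest between exponential and late exponential, whose same-numbered arrays deviated in opposite directions, so culture numbers in the glucose phase are in doubt). The procedure was tested on simulated data for the post-diauxic against diauxic shift comparison with 6005 probe sets. Changes were added only to probe sets with a mean signal well above the floor, with noise drawn independently for each value. There it recovered 90% of changes of log2 1.5 and 98% of 2.5, with none of the wrong sign and 2 false calls. These rates do not cover weak transcripts, or deviations that the probe sets of an array share.

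The groups, 36 gene lists and tests were chosen with earlier results of these data known. Named were the 12 genes per direction with the largest change among those called (at least 1 array of each group above the floor, 1 gene a probe set), the 4 members of each list with the largest change, and 11 genes named in the study. ADH2, ICL1, PCK1, SSA2, HEF3, SNZ1, RPS9B, RPS22A, RPL22A, RPL7A, RPL15B, SAM2, SSA1, STE2 and YMR085W, and the genes of the closing section other than ADE17, GCV1, GCV2, TKL2 and ZRT1, were named after their values were seen. Alternatives covered the floor, filter, normalization, arrays fitted, culture as a block, fold limit, spread, features and each array left out. Promoter motifs were not analysed here. Figures used Python 3.11.15 and matplotlib 3.10.9.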

Additional observations from a re-analysis of the deposited data

Results flagged for a closer look

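Beside the protein-coding genes, 1408 features of other RNAs or of sequences that the annotation used here does not list were fitted in the same way and adjusted apart. Of these, 20 were called higher and 27 lower in the post-diauxic phase than at the diauxic shift, and 44 of the 47 belong to the 1261 unlisted features. They were singled out because they lie outside the genes the report describes. The largest changes were those of 2 unlisted features, 1 with 97.1 and 113 at the shift against 566 and 513 afterwards (log2 2.36), and 1 with 642 and 496 against 108 and 120 (log2 -2.31).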

How the results depend on the processing

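Of 100 recomputed counts of called probe sets over the 3 comparisons, 91 stayed within 1.5 times the main count. With no fold limit, 840 probe sets were higher and 504 lower in the post-diauxic phase than at the diauxic shift, 1966 and 1247 at the diauxic shift than in the late exponential phase, and 929 and 1196 in early SP than in the post-diauxic phase. With only the 4 arrays compared, 284 were called higher in the main comparison; the cause was not tested, beyond the fewer degrees of freedom of that fit. Leaving out each array, 1 at a time, of the 2 groups gave 231 to 495 higher and 120 to 237 lower, the lowest without the diauxic shift array of culture 1. With culture as a replicate block, which pairs the samples, 447 were higher and 209 lower, and as a random block 449 and 215; the fixed block gave 1174 and 771 for the step before and 407 and 695 for the step after, and no block changed the call of any of 163 named genes. Of the 163 named genes, 23 lost their call without the diauxic shift array of culture 1, 8 without that of culture 2, 17 and 12 without the post-diauxic arrays of cultures 1 and 2, 18 with only the 4 arrays compared, 10 at a floor of 1, 5 at a floor of 30, 3 with no filter and 2 each with quantile normalization and housekeeping scaling. Some of the 163 were not called in the main fit and had no call to lose. No change that was called, in the main fit or in an alternative, reversed in direction between the 2. Changes called in neither were not checked for this. The share of calls that were higher ranged from 61.6% to 70.6% against 67.7%. Housekeeping scaling moved the median of all probe sets by 0.03. The limits are those of 2 cultures, a floor of 12 that bounds changes of weak transcripts, and no measure of total RNA per cell.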

Other observations

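Of the genes called, 198 that rose and 153 that fell belong to none of the 36 lists. Reading through those that rose led to lists drawn up after their values were seen. Their counts, medians and named members are therefore description alone, selected by the same values, and were not tested. Purine synthesis was the fullest of these lists, with 9 of 13 measured genes higher and a median log2 change of 1.44. ADE17, which carries out the last steps to inosine monophosphate, went from 155 and 208 to 1456 and 1171 (7.27-fold), and ADE4, the first committed enzyme, was at or below 12 on both diauxic shift arrays and at 76.6 and 59.4 afterwards, at least 5.62-fold higher. Its neighbours in metabolism, glycine cleavage and the folate-bound carbon units that purines need, had 7 of 11 genes higher with a median of 1.42. GCV2 and GCV1, subunits of the glycine cleavage complex, rose 7.43-fold and 7.32-fold, and SHM2, the cytosolic serine hydroxymethyltransferase, 5.83-fold from 195 and 221 to 1271 and 1153. Among 18 cytosolic aminoacyl-tRNA synthetases, which charge transfer RNA, 9 were higher and all 18 had positive changes (median 0.99), with FRS2 at 2.81-fold as the largest.

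In the pentose phosphate pathway 4 of 13 genes were lower, and they were minor isoforms or homologs: TKL2, GND2 (3.36-fold), NQM1 (3.32-fold) and SOL1 (3.16-fold). Their main counterparts TKL1, GND1 and TAL1 did not pass the test, at log2 changes of 0.83, 0.22 and -0.08. Of 11 genes of pyrimidine synthesis and uptake 4 were higher and 1, URA10, lower (2.82-fold). Of 10 zinc genes ZRT1 alone was higher and IZH4 lower (3.74-fold), and ZAP1, the zinc-responsive activator, had 42.9 and 38.7 against 60.2 and 55.9.

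For 6 probe sets culture 2 was more than 2-fold above culture 1 at both time points compared: ANB1, DAN1, TIR1 and TIR3, which are known from growth without oxygen, HUG1 and MF(ALPHA)1. DAN1 was at or below 12 in culture 1 at both and had 359 and 494 in culture 2, and TIR1 had 102 and 62.1 in culture 1 against 951 and 1372. DAN1 also differed in the exponential phase (12 and 160), in early SP (12 and 359) and in late SP (12 and 930), but not in the late exponential phase (12 and 12.1). The numbering of the cultures in the glucose phase is in doubt.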
